A study of Mus musculus with 11 samples.

Results

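The receptors for the myeloid colony-stimulating factors were followed on microarrays of common lymphoid progenitors (CLPs), which reside in bone marrow and produce the lymphocyte lineages. The set held the 6 genes Csf1r, Csf3r, Csf2ra, Il3ra, Csf2rb and Csf2rb2 out of 22180 genes, taken by symbol. For each gene the rule takes the probe set that carries a single symbol and has the highest mean over the 11 arrays, and each of these genes had 1 such probe set. The choice of genes used no measured value, although it was made with earlier results of these arrays known.

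C57BL/6 mice had been given 50 µg of CpG1826, a synthetic DNA ligand of Toll-like receptor 9, or PBS every other day, and CLPs were sorted on day 10 by surface Ly-6D, which appears as CLPs enter the B lineage. The groups were Ly-6D+ CLPs from CpG-treated mice (3 arrays), Ly-6D+ CLPs from PBS-treated mice (2 arrays), Ly-6D- CLPs from CpG-treated mice (3 arrays) and Ly-6D- CLPs from PBS-treated mice (3 arrays). All mice were C57BL/6 without a stated genetic change, and their age is not given in the sources used here. Nothing in the labels tells whether a replicate was 1 mouse, a pool or a repeat of the same RNA, or whether both populations came from the same mice, so a p here speaks of the spread among these samples, which may be technical.

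Colony-stimulating factors instruct and sustain myeloid cells. Csf1r is a receptor tyrosine kinase for CSF-1 and interleukin-34, and Csf3r binds G-CSF as a homodimer. The GM-CSF and interleukin-3 receptors pair a ligand-specific alpha chain, Csf2ra or Il3ra, with a signalling beta chain. Csf2rb is the beta chain shared by GM-CSF, interleukin-3 and interleukin-5, and Csf2rb2 is a second beta chain of the mouse that serves interleukin-3. Csf1r and Csf3r are classical genes of the monocyte and neutrophil lineages, while CLPs are commonly defined by the interleukin-7 receptor and Flt3.

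In the GRCm38.p6 assembly, Csf2rb2 (chr15:78282507-78305721) and Csf2rb (chr15:78325800-78351001) are neighbours, with 20078 bases and 0 annotated genes between them. Csf3r lies at chr4:126023441-126044975, Csf2ra at chr19:61217191-61228461 and Il3ra at chr14:14345912-14355493. The 250 bases before the start of Csf2rb2, the receptor gene that rose after CpG, are shown here from RefSeq (chr15:78305722-78305971, minus strand), with matches to the searched motifs in capitals.
Csf2rb2: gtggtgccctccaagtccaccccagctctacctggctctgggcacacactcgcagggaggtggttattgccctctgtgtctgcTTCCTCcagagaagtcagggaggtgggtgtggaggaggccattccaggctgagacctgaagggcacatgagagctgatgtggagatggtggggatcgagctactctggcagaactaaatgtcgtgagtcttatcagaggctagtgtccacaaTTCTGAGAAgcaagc
The motifs were GAGGAA, the core bound by PU.1, the form TTGCNNAA bound by C/EBP factors, and the form TTCNNNGAA bound by STAT factors, each on both strands. In the Csf2rb2 window the PU.1 core occurred once, on the opposite strand and 167 bases before the start, and the STAT form once, 15 bases before it. Of 32851 RefSeq windows of this length, 23.3% held the PU.1 core, 9.56% the C/EBP form and 7.02% the STAT form. Promoter entries were matched for 4 of the 6 genes, and the stretches of 30 bases around the matches of the other 3 were as follows, again with the matches in capitals.
Csf3r (chr4:126024561-126024590, plus strand): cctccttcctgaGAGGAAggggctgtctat
Csf2ra (chr19:61228419-61228448, minus strand): ttcccaacctgcagatGAGGAAGAGGAAgc
Il3ra (chr14:14346350-14346379, plus strand): atctcaggaagTTGCTCAAtctcgggacca
Csf3r held 1 PU.1 core, Csf2ra 2 of them side by side and Il3ra a single C/EBP form. The starts used by these 3 promoter entries lie inside the gene spans given above, and so do the printed stretches. These are matches of letters and not sites shown to be bound.

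Levels are the deposited log2 values, on which a difference of 1 is a 2-fold change. Array medians lay between 3.85 and 3.96, and the correlation between arrays, computed over genes that do not vary independently, lay between 0.990 and 0.993 for arrays of the same group and between 0.984 and 0.992 for arrays of different groups. Ly6d, the gene of the sorted protein, lay at 12.55 to 12.61 in the Ly-6D+ arrays and at 7.47 to 8.50 in the Ly-6D- arrays, which fits the labels. The CLP genes Il7r (9.05 to 10.85) and Flt3 (10.36 to 10.87) were bright on every array. So were the granulocyte and monocyte markers S100a8 (12.49 to 12.71), S100a9 (11.51 to 11.84), Camp (10.63 to 11.37) and Lyz2 (10.13 to 10.85). Others of that list were dim, with group means of 3.32 to 3.68 for Cd14 and 3.91 to 4.82 for Fcgr1. Whether these transcripts came from the sorted cells was not tested. Of 1105 olfactory receptor genes, which bone marrow is not known to use, 95% had means below 3.80 and the highest was 6.34. The receptor genes ranged from 5.80 to 9.001, so all lay in the upper part of the scale. Probe sets differ in brightness, so no order between genes follows from this. The number of arrays limits the precision.

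**Figure D1:**
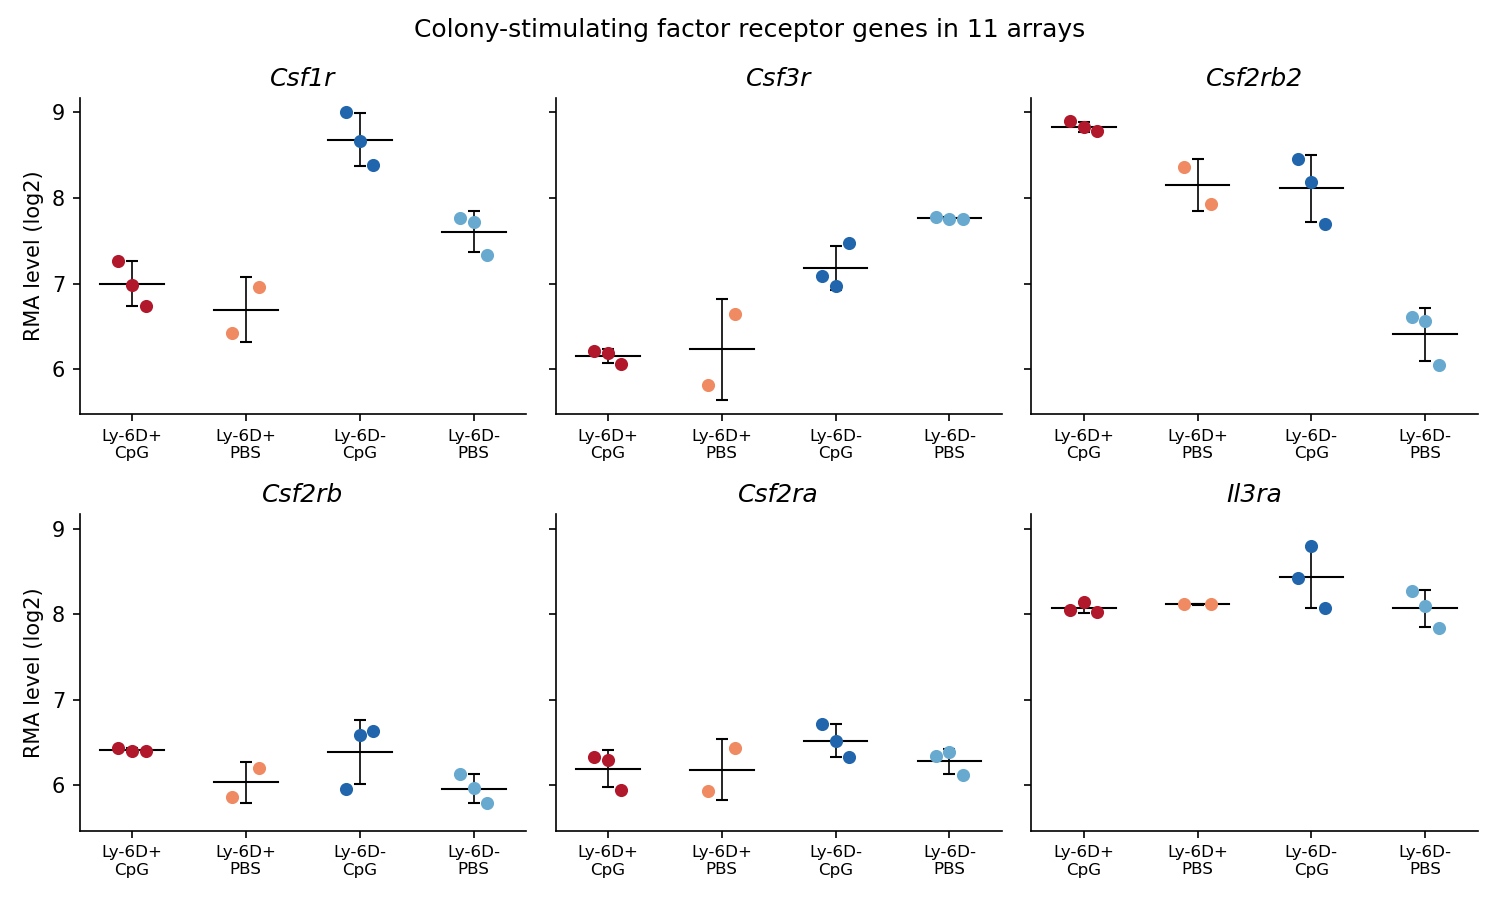
RMA level (log2) of the 6 receptor genes in each of the 11 arrays, with points for arrays, bars for group means and whiskers for SD (n = 3, or 2 in Ly-6D+ PBS). Csf2rb2 is lowest in the 3 Ly-6D- PBS arrays (6.05 to 6.61), Csf1r is highest in the 3 Ly-6D- CpG arrays (8.39 to 9.001), and Csf3r is highest in the 3 Ly-6D- PBS arrays (7.75 to 7.78). Levels are comparable between arrays within a gene, not between genes.

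The interleukin-3 beta chain Csf2rb2 rose after CpG in Ly-6D- CLPs. Its level was 8.46, 8.18 and 7.69 in the Ly-6D- CpG arrays, against 6.61, 6.56 and 6.05 in the Ly-6D- PBS arrays. Every CpG array was above every PBS array, and CpG replicate 3 was the nearest to them. The rise was 3.25-fold (log2 change 1.70, SE 0.21, 95% interval 1.24 to 2.16, limma adjusted p = 0.0108, with higher values in 3 of 3 CpG arrays). Csf2rb2 was the only receptor gene that passed in this comparison, 1 of 6, where 0.546% of all genes passed. The call ended without Ly-6D- CpG replicate 1 (adjusted p = 0.0638) or 2 (0.0639), without Ly-6D- PBS replicate 3 (0.0545), and in a fit of the Ly-6D- arrays alone (0.101), with log2 changes between 1.52 and 1.70. Over all 22 alternatives the adjusted p ran between 0.00148 and 0.101 and 18 kept the call. For any receptor gene, some alternatives could not move the estimate. Each had 1 probe set, so handling probe sets differently leaves its own level unchanged. Leaving out an array of a group outside the comparison leaves the log2 change unchanged too. Part of such agreement was therefore fixed in advance.

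Csf1r, the CSF-1 receptor gene at chr18:61105572-61131139, was at the edge of the threshold in the same cells. It stood at 9.001, 8.66 and 8.39 in Ly-6D- CpG arrays, against 7.77, 7.72 and 7.33 in Ly-6D- PBS arrays, without overlap. The log2 change was 1.08 (SE 0.21, 95% interval 0.62 to 1.54, limma adjusted p = 0.0524), which did not pass. It passed in 6 of 22 alternatives, among them leaving out Ly-6D- CpG replicate 3 (1.23, adjusted p = 0.0309), and the adjusted p ran between 0.0155 and 0.195.

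Csf3r, the G-CSF receptor, had the opposite sign. Its level was 7.09, 6.98 and 7.47 in Ly-6D- CpG arrays, against 7.78, 7.76 and 7.75 in Ly-6D- PBS arrays, again without overlap. The log2 change of -0.58 (SE 0.19, 95% interval -1.01 to -0.16) did not pass (limma adjusted p = 0.244). In all, 3 of 6 receptor genes had no overlap between these groups, as did 15.7% of all genes.

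The remaining chains of the GM-CSF and interleukin-3 receptors did not pass in Ly-6D- CLPs. Csf2rb, the shared beta chain, had 5.96, 6.58 and 6.64 in Ly-6D- CpG arrays, against 6.13, 5.97 and 5.80 in Ly-6D- PBS arrays, and CpG replicate 1 lay among the PBS arrays. Its log2 change was 0.43 (95% interval 0.04 to 0.82, limma adjusted p = 0.356). The alpha chains Il3ra (0.36, 95% interval -0.01 to 0.73) and Csf2ra (0.24, 95% interval -0.12 to 0.60) also had overlapping arrays. The median change of the 6 genes was 0.40, against -5.7e-04 over all genes.

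In Ly-6D+ CLPs, 0 of 6 receptor genes passed the limma test for CpG, where 0.0271% of all genes passed, and 1 had an unadjusted p under 0.05, as did 6.51% of all genes. That gene was Csf2rb2, at 8.90, 8.83 and 8.78 in Ly-6D+ CpG arrays and 8.37 and 7.93 in Ly-6D+ PBS arrays. The CpG arrays were all above the PBS arrays. The log2 change was 0.68 (SE 0.23, 95% interval 0.17 to 1.20, adjusted p = 0.592). Csf2rb was also without overlap, at 6.44, 6.40 and 6.40 in Ly-6D+ CpG arrays and 5.87 and 6.21 in Ly-6D+ PBS arrays (log2 change 0.37, 95% interval -0.06 to 0.81). Such a lack of overlap held for 2 of 6 receptor genes and for 20.4% of all genes.

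Csf1r in Ly-6D+ CLPs was at 7.27, 6.98 and 6.74 after CpG and at 6.43 and 6.96 after PBS, with overlap (log2 change 0.30, 95% interval -0.21 to 0.82). Csf3r was at 6.21, 6.19 and 6.06 after CpG and at 5.81 and 6.65 after PBS. The wide spread of the 2 PBS arrays encloses the CpG values of Csf3r (log2 change -0.08, 95% interval -0.56 to 0.40). The alpha chains had log2 changes of 0.01 for Csf2ra (95% interval -0.39 to 0.41) and -0.04 for Il3ra (95% interval -0.46 to 0.37).

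**Figure D2:**
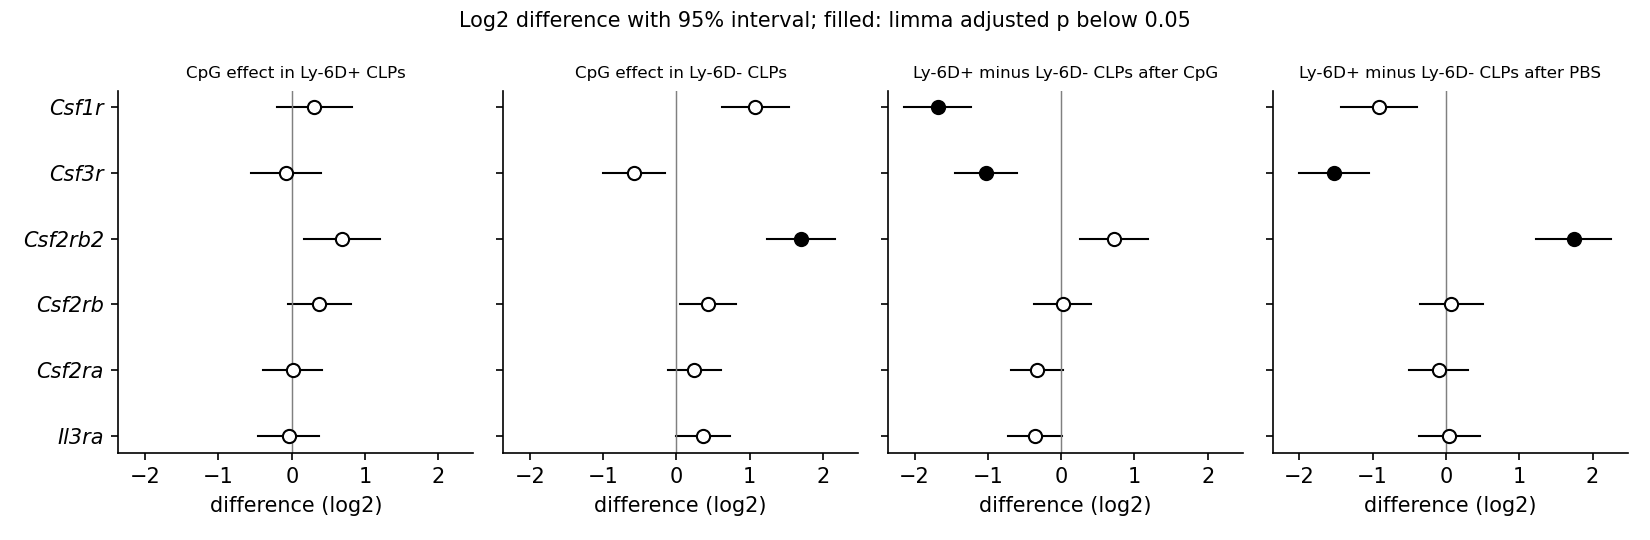
Log2 difference of the 6 receptor genes in each comparison of 2 groups, with the 95% interval from limma, filled where the adjusted p is below 0.05. The filled points are Csf2rb2 for CpG in Ly-6D- CLPs (1.70), Csf1r (-1.69) and Csf3r (-1.03) between the populations after CpG, and Csf2rb2 (1.74) and Csf3r (-1.53) between them after PBS.

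Whether CpG acted differently in the populations was tested as the CpG change in Ly-6D+ minus that in Ly-6D- CLPs. By limma, 0 of 6 receptor genes and 0% of all 22180 genes passed, with an unadjusted p under 0.05 for 2 receptor genes and 6.37% of all genes. Those were Csf2rb2 (-1.02, SE 0.31, 95% interval -1.71 to -0.33, adjusted p = 0.636) and Csf1r (-0.77, SE 0.31, 95% interval -1.46 to -0.09, adjusted p = 0.759). None of the 6 genes passed under any of the 21 alternatives. Averaged over both populations, Csf2rb2 rose 2.29-fold (log2 change 1.19, SE 0.16, limma adjusted p = 0.0149), the 1 of 6 that passed, where 0.482% of all genes did. That call ended without Ly-6D+ PBS replicate 1 (1.30, adjusted p = 0.0521) or 2 (1.08, adjusted p = 0.0855), each of which leaves 1 array in that group. Csf1r (0.69, adjusted p = 0.101), Csf2rb (0.40, 0.258) and Csf3r (-0.33, 0.420) did not pass.

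The populations themselves differed in 3 receptor genes, and not all in the same direction. After PBS, Csf2rb2 was 3.34-fold higher in Ly-6D+ than in Ly-6D- CLPs (log2 difference 1.74, SE 0.23, limma adjusted p = 0.00315), with the array values given above and no overlap. Csf3r was 2.89-fold lower in Ly-6D+ CLPs (log2 difference -1.53, SE 0.22, adjusted p = 0.00427), at 5.81 and 6.65 in Ly-6D+ PBS arrays, against 7.75 to 7.78 in Ly-6D- PBS arrays. These were 2 of 6 receptor genes, where 1.98% of all genes passed. Csf2rb2 lost the call without Ly-6D+ PBS replicate 1 (1.53, adjusted p = 0.0508), and Csf3r lost it in a fit of the PBS arrays alone (adjusted p = 0.0840). Csf1r was also lower in each Ly-6D+ PBS array than in any Ly-6D- PBS array, but did not pass (log2 difference -0.91, SE 0.23, adjusted p = 0.0864). So 3 of 6 receptor genes were without overlap after PBS, as were 26.9% of all genes.

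After CpG, Csf1r was 3.22-fold lower in Ly-6D+ than in Ly-6D- CLPs (log2 difference -1.69, SE 0.21, 95% interval -2.14 to -1.23, limma adjusted p = 0.00154), at 6.74 to 7.27 in Ly-6D+ CpG arrays, against 8.39 to 9.001 in Ly-6D- CpG arrays. It passed under all 22 alternatives, some of which leave its log2 change fixed, with adjusted p between 2.26e-04 and 0.0147. Csf3r was 2.04-fold lower (log2 difference -1.03, SE 0.19, adjusted p = 0.0196), at 6.06 to 6.21 in Ly-6D+ CpG arrays, against 6.98 to 7.47 in Ly-6D- CpG arrays. Its call ended without any single Ly-6D+ CpG array (adjusted p = 0.0616, 0.0603 and 0.0762 without replicates 1, 2 and 3), without Ly-6D- CpG replicate 1 (0.0584) or 3 (0.0589), and without all arrays numbered 3 (0.210). Csf2rb2 was higher in each Ly-6D+ CpG array than in any Ly-6D- CpG array, but did not pass (log2 difference 0.72, SE 0.21, adjusted p = 0.134). Of 6 receptor genes 2 passed, where 2.14% of all genes did, and 3 were without overlap, as were 16.9% of all genes. These comparisons share arrays with those of CpG against PBS, so they are not independent of each other.

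The order of the groups, from the highest mean, differed between the genes. For Csf1r it ran Ly-6D- CpG, Ly-6D- PBS, Ly-6D+ CpG, Ly-6D+ PBS, and only the arrays of the last pair overlapped. For Csf3r it ran Ly-6D- PBS, Ly-6D- CpG, Ly-6D+ PBS, Ly-6D+ CpG, and again only those of the last pair overlapped. For Csf2rb2 it ran Ly-6D+ CpG, Ly-6D+ PBS, Ly-6D- CpG, Ly-6D- PBS. There the middle pair overlapped, with means of 8.15 ± 0.31 (SD, n = 2) in Ly-6D+ PBS and 8.11 ± 0.39 (SD, n = 3) in Ly-6D- CpG arrays. For Csf2rb, Csf2ra and Il3ra each pair of neighbours overlapped, and the whole range over 11 arrays was 0.84, 0.78 and 0.95, against 2.85 for Csf2rb2, 2.58 for Csf1r and 1.96 for Csf3r.

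The beta chains are close relatives, and probe sequences were not used here, so signal from one gene on the probe set of the other was not tested. The log2 value of Csf2rb2 minus that of Csf2rb within an array shows whether their measured values moved unequally. Its absolute size has no meaning, and it is built from the array values given above, so it is no independent evidence. It was 2.50, 1.60 and 1.05 in Ly-6D- CpG arrays, against 0.48, 0.60 and 0.26 in Ly-6D- PBS arrays, and 1.27 higher on average after CpG (exact 2-sided permutation p = 0.1, the smallest that 20 arrangements allow). After PBS it was 2.50 and 1.73 in Ly-6D+ arrays, and so 1.67 above the Ly-6D- arrays on average (exact 2-sided permutation p = 0.1, the smallest that 10 arrangements allow). In Ly-6D+ CLPs it averaged 2.42 ± 0.04 (SD, n = 3) after CpG and 2.11 ± 0.54 (SD, n = 2) after PBS, with overlapping arrays (exact permutation p = 0.4). The designs cannot reach a p below 0.1.

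**Figure D3:**
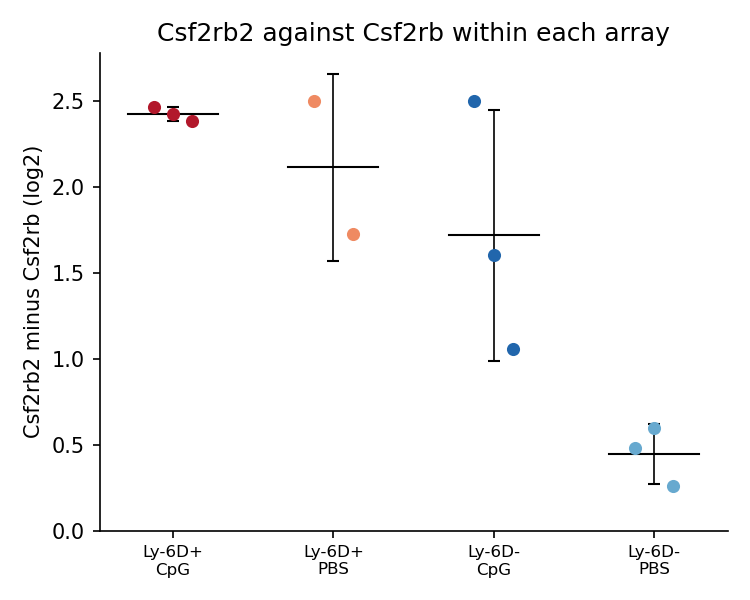
Csf2rb2 minus Csf2rb (log2) within each array, with points for arrays, bars for means and whiskers for SD. The 3 Ly-6D- PBS arrays (0.26 to 0.60) lie below all other arrays, the lowest of which is at 1.05.

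Some transcription factors known to control these receptor genes in myeloid cells differed between the populations. Of the 10 listed regulators, 4 were lower and 0 higher in Ly-6D+ than in Ly-6D- CLPs after CpG (median difference -0.43, against -0.0041 over all genes). After PBS 2 were lower and 1 higher (median -0.44, against -0.0091 over all genes). Of all genes, 2.14% passed after CpG and 1.98% after PBS. Cebpa, the C/EBP factor of granulocyte and monocyte commitment, was lower in both (log2 difference -1.53, SE 0.16, limma adjusted p = 5.74e-04 after CpG, and -1.17, SE 0.18, adjusted p = 0.00670 after PBS). Its level was 5.47 to 5.78 in Ly-6D+ CpG arrays and 5.40 to 5.52 in Ly-6D+ PBS arrays, against 6.82 to 7.38 in Ly-6D- CpG and 6.44 to 6.85 in Ly-6D- PBS arrays. Spi1, which encodes PU.1, was lower after CpG (-0.79, adjusted p = 0.00944) and did not pass after PBS (-0.45, adjusted p = 0.187). Cebpb followed the same way (-0.98, adjusted p = 0.0188 after CpG, and -0.64, adjusted p = 0.186 after PBS). Gata2, a factor of stem, mast and basophil cells, was lower in both (-1.08, adjusted p = 0.0376 after CpG, and -1.84, adjusted p = 0.00385 after PBS). Irf8, a factor of monocytes, dendritic cells and B cells, was higher in Ly-6D+ CLPs after PBS (0.72, SE 0.10, adjusted p = 0.00404) and did not pass after CpG (0.24, adjusted p = 0.281).

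None of these regulators passed for CpG against PBS in either population (0 of 10 by limma, median change 0.07 in Ly-6D+ and 0.05 in Ly-6D- CLPs). Of all genes, 0.0271% passed in Ly-6D+ and 0.546% in Ly-6D- CLPs. The largest log2 changes in the Ly-6D- cells were 0.77 for Cebpb (adjusted p = 0.104), 0.48 for Cebpa (0.242), 0.47 for Spi1 (0.156) and 0.39 for Irf8 (0.0989). The rest of the 10 lay between -0.09 for Runx1 and 0.05 for Cebpe. In the Ly-6D+ cells 6 of 10 were above 0, and the changes ran from -0.19 for Ets2 to 0.77 for Gata2.

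**Figure D4:**
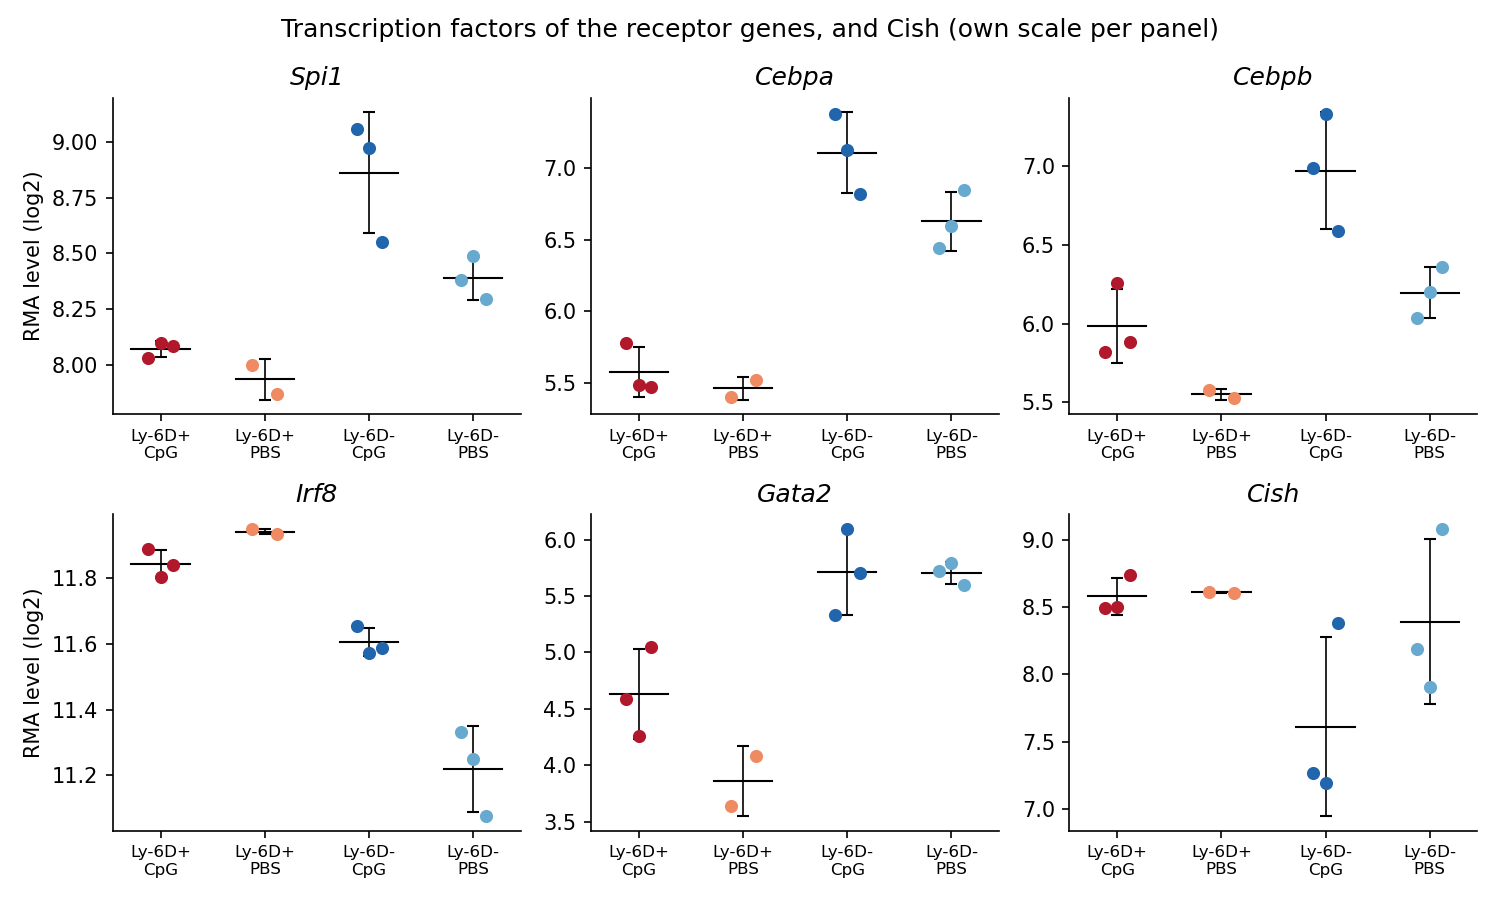
RMA level (log2, own scale per panel) of 5 transcription factors of the receptor genes and of the feedback inhibitor gene Cish in each array, with bars for means and whiskers for SD. Cebpa is lower in the 5 Ly-6D+ arrays (5.40 to 5.78) than in the 6 Ly-6D- arrays (6.44 to 7.38), while Irf8 is higher in the Ly-6D+ arrays.

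Downstream, the beta chains signal through the kinase JAK2 to STAT5, and CISH and SOCS proteins shut the signal off. The 17 kinases, STATs and adaptors with a probe set of their own gave 0 calls in all 6 comparisons, where at most 2.14% of all genes passed. For CpG in Ly-6D- CLPs, Jak2 had a log2 change of 0.38 (adjusted p = 0.370), Stat5a 0.08 and Stat5b 0.02. Of the 11 inhibitors, Socs3 rose in the average over both populations, near the threshold (log2 change 0.61, SE 0.11, limma adjusted p = 0.0471). Socs3 passed neither in Ly-6D+ (0.79, adjusted p = 0.202) nor in Ly-6D- CLPs (0.42, adjusted p = 0.258). In the latter, CpG replicates 2 and 3 and PBS replicate 3 all stood at 5.27. Cblb, a ubiquitin ligase, was higher in Ly-6D+ than in Ly-6D- CLPs (0.46, adjusted p = 0.0314 after CpG, and 0.58, adjusted p = 0.0178 after PBS). Cish, a STAT5 target, was at 7.27, 7.19 and 8.38 in Ly-6D- CpG arrays, against 8.19, 7.91 and 9.08 in Ly-6D- PBS arrays. These overlapped, with the arrays numbered 3 the highest of each group (log2 change -0.78, adjusted p = 0.389). Socs1 did not pass either (0.58, adjusted p = 0.365 in Ly-6D+ and 0.07 in Ly-6D- CLPs). The 12 target genes gave 0 calls.

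The genes of the ligands and the interleukin-5 receptor alpha chain, 7 in all, gave 0 calls in the 6 comparisons, where at most 2.14% of all genes passed. Their group means lay between 2.52 for Il5ra and 3.93 for Csf1. Most of these means were below 3.80, as were those of 95% of the olfactory receptor genes. Csf1 lay above that in Ly-6D+ CpG (3.93) and Ly-6D- PBS arrays (3.90), near the array medians of 3.85 to 3.96. The lack of calls at such levels does not tell whether these genes were regulated. Of all 57 genes of these lists, 0 passed for CpG in either population. Of all genes, 0.0271% passed there in Ly-6D+ and 0.546% in Ly-6D- CLPs. In the average 1 of the 57 rose, where 0.482% of all genes passed. Between the populations 1 was higher and 4 lower in Ly-6D+ CLPs after CpG, where 2.14% of all genes passed. After PBS 2 were higher and 2 lower, where 1.98% of all genes passed.

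For CpG in Ly-6D- CLPs, where 0.546% of all genes passed, 3 of 19 granulocyte and monocyte markers rose and 0 fell. These were the monocyte-associated F13a1, a coagulation factor subunit (log2 change 1.81, adjusted p = 0.0101), the chemokine receptor Ccr2 (1.57, adjusted p = 0.0101) and Ly6c2 (1.09, adjusted p = 0.0300). None of the neutrophil genes passed. The log2 change was 1.09 for Ctsg (adjusted p = 0.104) and 1.04 for Prtn3 (adjusted p = 0.0787), both without overlap between the arrays. Mpo (0.16) and Elane (-0.29) had overlap. So did S100a8 (-0.04), S100a9 (-0.05), Ngp (-0.13), Camp (-0.12), Ltf (-0.07) and Ly6g (0.08), which hardly moved. F13a1 was at 9.09, 8.65 and 8.06 in Ly-6D- CpG arrays, against 6.98, 6.81 and 6.58 in Ly-6D- PBS arrays, and CpG replicate 3 was again the nearest to PBS. The mean level of the list was 8.627 to 9.07 in Ly-6D- CpG arrays, against 8.39 to 8.634 in Ly-6D- PBS arrays. These ranges overlapped, with CpG replicate 3 below PBS replicate 2. The 7 macrophage markers gave 0 calls, with list means of 5.48 to 6.12 after CpG and 5.19 to 5.30 after PBS, and the 6 conventional dendritic cell markers gave 0 calls, with 4.87 to 5.13 after CpG and 4.54 to 4.68 after PBS. The 8 plasmacytoid dendritic cell markers and the 7 mast cell, basophil and eosinophil markers also gave 0 calls. Of 8 CLP markers 2 fell, Il7r (-0.81, adjusted p = 0.0300) and Rag2 (-0.75, adjusted p = 0.0221). Ebf1 (-0.72), Kit (-0.35), Flt3 (-0.31) and Dntt (-0.29) did not pass, each without overlap between the arrays. Of the 8, 1 was above 0, and the median change was -0.43, against -5.7e-04 over all genes. The CLP list mean was 8.75 to 9.10 after CpG and 9.34 to 9.37 after PBS. For CpG in Ly-6D+ CLPs, 0 of the 19 granulocyte and monocyte markers passed, and 12 were above 0. Ccr2 changed by 0.92, F13a1 by 0.83 and Mpo by -0.87. In the average over both populations, Ccr2 (1.24, adjusted p = 0.00853), F13a1 (1.32, adjusted p = 0.00870) and Batf3 (0.92, adjusted p = 0.0309) rose. Rag2 fell there (-0.45, adjusted p = 0.0469). Array levels have no true zero and detection values were not used here, and fewer cells of a type cannot be told apart from less RNA per cell. The part of these markers in the change of Csf2rb2 was not tested.

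Between the populations, 2.14% of all genes passed after CpG and 1.98% after PBS. Of the granulocyte and monocyte markers, 0 were higher and 5 were lower in Ly-6D+ CLPs after CpG. These were F13a1 (-3.03), Ctsg (-2.36), Prtn3 (-1.93), Ccr2 (-1.91) and Mpo (-1.78). After PBS F13a1 (-2.05) and Ccr2 (-1.25) were lower. The list mean was 8.11 to 8.41 in Ly-6D+ CpG and 7.85 to 8.33 in Ly-6D+ PBS arrays. Of 8 plasmacytoid dendritic cell markers, 7 were higher in Ly-6D+ CLPs after CpG and 5 after PBS, with Siglech at 2.95 and 2.77. Il3ra, which marks plasmacytoid dendritic cells in humans, did not pass in either (-0.35, 95% interval -0.73 to 0.02 after CpG, and 0.05, 95% interval -0.37 to 0.46 after PBS). Of 7 mast cell, basophil and eosinophil markers, Cpa3 (-1.63 and -2.94) and Mcpt8 (-1.16 and -1.28) were lower after CpG and after PBS. Of 6 conventional dendritic cell markers, Itgax was higher after CpG (0.86) and after PBS (1.38), and Batf3 was lower after CpG (-0.89). The CLP list also differed. Of its 8 genes, 4 were higher and 1 lower in Ly-6D+ CLPs after CpG, and 3 were higher and 1 lower after PBS. Apart from Ly6d, on whose protein the cells were sorted, these were the B-lineage factor gene Ebf1 (3.85 after CpG and 3.64 after PBS), Il7r (1.46 and 0.68) and, after CpG, Rag2 (0.86) as higher, and the stem cell factor receptor gene Kit (-0.67 and -1.08) as lower. The part of these markers in the differences of Csf1r, Csf3r and Csf2rb2 was not tested.

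Across the 11 arrays, the genes most like each receptor gene were found by Pearson correlation among 10313 brighter genes, as a description of arrays that fall into 4 groups. For Csf2rb2 they were Rexo2 (r = 0.974), Pdia5, a protein disulfide isomerase (0.965), and Mcm4, a subunit of the replicative helicase (0.963). For Csf1r they were the kinase Mapkapk3 (0.980), the myosin Myo1f (0.976) and the mitochondrial enzyme Dld (0.974). For Csf3r they were the receptor Calcrl (0.968), Naxe (0.967) and endomucin, Emcn (0.965). The genes with narrow ranges had lower values, with Tmco1 (0.950), Loxl3 (0.938) and Hibch (0.933) for Csf2ra, Micu2 (0.937), Sh2d1b1 (0.925) and Copg2 (0.922) for Il3ra, and Eipr1 (0.914), Dhrs7b (0.870) and Ints9 (0.865) for Csf2rb.

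**Figure D5:**
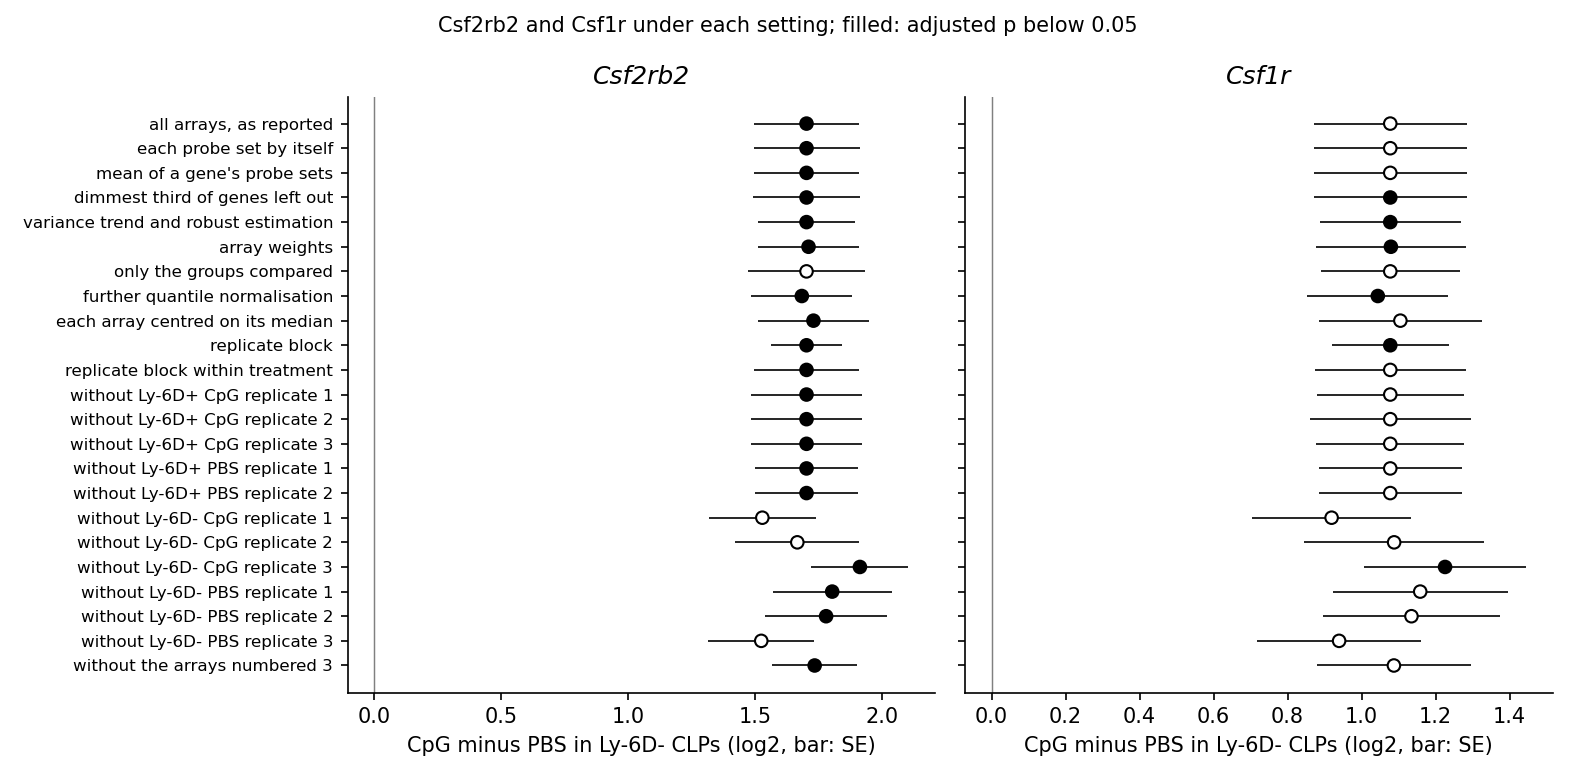
Log2 change for CpG against PBS in Ly-6D- CLPs of Csf2rb2 and Csf1r under each alternative setting, with bars for SE and filled points where the limma adjusted p is below 0.05. Csf2rb2 lies between 1.52 and 1.91 and Csf1r between 0.92 and 1.23.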

How the data were processed

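The authors deposited log2 values that Partek's RMA had produced, as the submitters' processing notes tell. Software versions were not stated there. The labels' protocols describe amplification of 5 ng RNA by a NuGen kit and labelling of 5 µg cDNA. Of 41345 probe sets, 23521 carried 1 symbol, 1814 several and 16010 none in the supplied annotation. Each of 22180 genes was represented by its brightest single-symbol probe set. One limma model (limma 3.58.1, R 4.3.3, lmFit and eBayes, 7 residual and 3.48 prior degrees of freedom) fitted the means of all 4 groups and gave every comparison. The threshold was an adjusted p (Benjamini-Hochberg, over all genes) below 0.05. Other tools were Python 3.11.15, pandas 2.3.3 and matplotlib 3.10.9.

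The members, lists, tests and alternatives were chosen with earlier results of these data known. All 6 receptor genes were named, with pathway genes that passed, fixed downstream and regulator genes, markers that passed in a comparison where a receptor gene passed, of which some are left out for length, and the 3 most correlated genes. Genes of the lists that lack a single-symbol probe set are not reported here. The fit was also run on simulated data with independent noise, as a check of the size of the estimated changes. That run held no pairing and no arrays of unequal quality, so it does not test the calls under those conditions.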

Additional observations from a re-analysis of the deposited data

How the results depend on the processing

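The 6 receptor genes were recomputed in 6 comparisons under up to 22 alternatives, 780 values in all. Of these, 736 kept direction and side of the threshold, in part by construction. In Ly-6D- CLPs the number passing for CpG was 2 without the dimmest 33.3% of genes, with a variance trend and robust estimation, with array weights and with a further quantile normalisation (Csf1r joined Csf2rb2), and 0 in a fit of the Ly-6D- arrays alone. Leaving out single arrays gave 0 to 2. The average gave 2 with trend and robust estimation, and 0 to 1 with 1 array left out. The populations after CpG gave 1 to 2 with 1 array left out and 1 without the arrays numbered 3, an alternative chosen after seeing the data. After PBS they gave 3 with trend and robust estimation, 1 when only the PBS arrays were fitted, and 1 to 2 with 1 array left out. The count of all genes passing for CpG in Ly-6D- CLPs was 121, against 4 in a fit of those arrays alone, 425 with trend and robust estimation, and 5 to 309 with 1 array left out. For CpG in Ly-6D+ CLPs it was 6, against 0, 18 and 4 to 16. For the average it was 107, against 302 and 6 to 216. Between the populations it was 474 after CpG, against 264 when only those arrays were fitted and 726 with trend and robust estimation, and 439 after PBS, against 190 and 660.

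The replicate numbers were not taken to pair the arrays, because the labels do not say so and only 2 of 15 same-numbered pairs had deviations correlated above 0.1 (range -0.03 to 0.18). As a hint from the data and not the design, 8 of 11 arrays correlated best with one of their own number. With the replicate block, 2 receptor genes passed for CpG in Ly-6D- CLPs, 2 in the average, 3 between the populations after CpG and 3 after PBS, and 0 in the others. The genes it added were Csf1r for CpG in Ly-6D- CLPs (adjusted p = 0.0359), in the average (0.0378) and between the populations after PBS (0.0297), and Csf2rb2 between the populations after CpG (0.0371). The share of all genes passing with this block is not reported here. Whether the added calls are particular to these genes therefore cannot be told. With the replicate block within treatment all 6 counts of receptor genes were as reported.

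The values that changed sign were all of genes that did not pass. Il3ra moved to 0.063 for CpG in Ly-6D+ CLPs and to -0.056 between the populations after PBS with the replicate block. Without the arrays numbered 3 it moved to -0.065 between the populations after PBS. Without those arrays Csf2rb moved to 0.16 for the difference of the CpG effects and to -0.0099 between the populations after PBS. With 1 array left out, the CpG effect in Ly-6D+ CLPs ran between -0.24 and 0.26 for Csf2ra and between -0.50 and 0.34 for Csf3r. The difference of the CpG effects ran between -0.48 and 0.019 for Csf2ra and between -0.27 and 0.11 for Csf2rb. Between the populations, Csf2rb ran between -0.20 and 0.14 after CpG and between -0.094 and 0.24 after PBS, and after PBS Csf2ra ran between -0.35 and 0.15 and Il3ra between -0.065 and 0.15. The cause was not tested.

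Fits of the compared groups alone were not run for the average and the difference, which need all 4 groups. With either Ly-6D+ PBS array removed, the lone one is assumed to vary like the other groups.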
